A study of Mus musculus with 2 samples.

Results

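Genes of megakaryocytes and platelets were examined in KSL cells of mice labelled Nrf2 KO and wild type. The group was set by name as 10 genes: Pf4, Gp5, Gp9, Itga2b, Vwf, Thbs1, Gng11, Selp, Treml1 and Rab27b. A gene entered where the platform annotation gave a probe set that symbol and no other, which held for 9 of the 10, out of 19938 genes named in that way. Selp, which encodes the platelet and endothelial adhesion molecule P-selectin, was not analysed here. Each of the 9 measured genes had 1 probe set, a group of short probes on the array summarised as 1 value.

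KSL cells are sorted from marrow as positive for c-Kit and for Sca-1 and negative for lineage markers, and the gate holds blood stem cells along with early multipotent progenitors. NRF2 is a transcription factor encoded by Nfe2l2 that drives genes of the antioxidant response, and the title of the series asks how it bears on stem cell survival. Both groups were young healthy C57BL/6J mice of 8 to 10 weeks, 1 labelled Nrf2 KO and the other wild type, kept in a germ free facility per the labels. Marrow of 5 mice per genotype was pooled before staining and sorting, and each pool gave 1 RNA sample on 1 Affymetrix Mouse Gene ST 1.0 array. The deleted part of the gene, the cells that carry the deletion and the sex of the mice are not stated in the labels. With 1 array per genotype there was no replicate spread, no test and no p-value, and precision was limited by how few arrays there were.

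Megakaryocytes are the marrow cells that shed platelets. Their surface carries receptors for von Willebrand factor and fibrinogen, and their alpha granules store adhesive proteins and chemokines that platelets release at a wound. Part of this programme is also known in haematopoietic stem cells, where Itga2b and Vwf mark cells with a bias toward the platelet lineage. Transcription factors of the GATA and ETS families bind many promoters of the lineage.

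The 9 genes did not share a direction. On the knockout array 4 were higher and 5 were lower than on the wild-type array. The platelet chemokine gene Pf4 and the von Willebrand factor gene Vwf were at least 1.5-fold higher, and the receptor subunit gene Gp5 and the thrombospondin gene Thbs1 were at least 1.5-fold lower. The remaining 5 lay within 1.5-fold, and 0 of the 9 reached 2-fold. A size of 1.5-fold was the fixed limit for counting, because a single pair of arrays allows no test. Against 2 of 9 in each direction here, 1.74% of all 19938 genes were higher by that size and 3.15% were lower; at 2-fold the shares were 0.311% and 0.602%. Over the 9970 genes with a mean level at or above the median gene, a log2 intensity of 6.57, the 1.5-fold shares were 2.34% and 4.3%. This level filter was passed by 8 of the 9 genes, and it is no test of detection. The genes were named with earlier results of these arrays known, so their count is a description and supports nothing by itself.

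The promoters of the genes with the largest difference in each direction, Pf4 and Gp5, and of Gp9, whose product sits with that of Gp5 in one receptor, are shown because the lineage's GATA and ETS factors act through such stretches. Each line gives the 250 bases before the annotated start from RefSeq (build GRCm38.p6), read 5′ to 3′ on the strand of the gene. The fourth line gives bases 21 to 50 of the Pf4 transcript. Capitals mark matches on either strand to 3 motifs. GATA factors were searched as AGATAA. The shorter core of the ETS family was searched as GGAA. The antioxidant response element, which NRF2 binds with small MAF proteins, was searched by its core TGACNNNGC.
Pf4, chr5:90772185-90772434, plus strand: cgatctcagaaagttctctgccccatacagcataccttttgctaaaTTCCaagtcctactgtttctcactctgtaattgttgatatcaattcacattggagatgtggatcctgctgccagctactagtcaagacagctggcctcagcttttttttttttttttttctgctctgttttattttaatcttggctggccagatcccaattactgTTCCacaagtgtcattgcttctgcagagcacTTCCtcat
Gp5, chr16:30310782-30311031, minus strand: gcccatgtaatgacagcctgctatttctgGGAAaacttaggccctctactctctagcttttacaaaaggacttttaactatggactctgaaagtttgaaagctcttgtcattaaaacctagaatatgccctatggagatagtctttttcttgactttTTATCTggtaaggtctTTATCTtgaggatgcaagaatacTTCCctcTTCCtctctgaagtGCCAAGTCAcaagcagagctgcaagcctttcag
Gp9, chr6:87777820-87778069, plus strand: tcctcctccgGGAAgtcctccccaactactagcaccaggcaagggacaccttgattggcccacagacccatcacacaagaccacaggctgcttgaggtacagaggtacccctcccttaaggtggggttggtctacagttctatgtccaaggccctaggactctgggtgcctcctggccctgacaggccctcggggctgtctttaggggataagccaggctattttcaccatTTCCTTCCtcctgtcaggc
Pf4 past the start, chr5:90772455-90772484, plus strand: actgggcaggcagtgaAGATAAaacgtgct

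Promoters of 6 of the 10 genes were in the RefSeq table: Pf4, Gp5, Gp9, Itga2b, Treml1 and Selp. Over the whole window of 300 bases, from 250 before to 50 after the start, AGATAA was found in 2 of the 6, against 11.2% of 32851 promoters in the table. Gp5 held 2 such matches, from 93 and from 77 bases before the start, both as TTATCT on the printed strand. Pf4 held 1, from base 37 of the transcript. GGAA was found in all 6, but also in 96.0% of all promoters. TGACNNNGC was found in 1 of the 6, against 12.4% of all promoters. That match was in Gp5, beginning 33 bases before the start on the opposite strand, and it overlapped no other marked match. The GC box GGGCGG of SP1 was found in 0 of the 6 and in 35.7% of all promoters. A match of letters in this window is a description and was not tested as a binding site.

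Pf4 encodes platelet factor 4, a CXC chemokine stored in alpha granules. It read 9.30 on the knockout array and 8.51 on the wild-type array, in log2 intensity. The difference, always log2 knockout minus log2 wild type here, was 0.79, or 1.73-fold higher in the knockout. It ranked 143 from the highest among the 19938 genes. With all genes cut into 4 equal bins by mean level, Pf4 lay in the top bin, where 1.58% of genes were at least 1.5-fold higher.

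Vwf encodes the large adhesive protein that tethers platelets to the vessel wall. It read 7.28 in the knockout against 6.65, a difference of 0.63, or 1.55-fold. Its wild-type value lay just above the level filter of 6.57. Vwf was just past the 1.5-fold limit. In its level bin, the next below that of Pf4, 3.09% of genes were at least 1.5-fold higher. Vwf is also made by endothelial cells. Of 10 endothelial markers measured, 6 were higher and 4 lower in the knockout, with 0 past 1.5-fold and a median of 0.06. The largest differences were Tek at −0.55, Egfl7 at 0.34 and Kdr at 0.27. Of the 10, 7 were below the level filter, and over the 3 that passed, Pecam1, Emcn and Egfl7, the median was −0.07. The summed linear intensity of the 10 was 1715.9 in the knockout against 1673.5.

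Gp5 encodes glycoprotein V, a subunit of the GPIb-IX-V receptor for von Willebrand factor. It read 7.18 in the knockout against 8.08. The difference of −0.90, or 1.87-fold lower, was the largest in size of the 9 genes and ranked 184 from the lowest among all genes. In its level bin, shared with Vwf, 5.3% of genes were at least 1.5-fold lower. Gp9, which encodes glycoprotein IX of the same receptor, stood at 7.10 against 6.97, a difference of 0.13. The receptor's 2 measured subunits thus lay on opposite sides of 0, and whether they differ beyond error could not be tested. Gp1ba and Gp1bb, the genes of its ligand-binding and linked chains, were not analysed here.

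Thbs1 encodes thrombospondin 1, an adhesive alpha granule protein that monocytes and stromal cells also make. It read 7.32 in the knockout against 8.10, a difference of −0.78, or 1.72-fold lower. The other thrombospondin genes were all below the level filter and close to level, with Thbs2 at 0.14, Thbs3 at 0.11, Thbs4 at 0.10 and Comp at −0.11. Among thrombospondin receptors, Cd47 stood at 11.78 and 11.76. The scavenger receptor gene Cd36 stood at 3.75 against 4.62, both far below the level filter, where a difference is least sure.

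Gng11 encodes a G protein gamma subunit abundant in platelets. It read 6.52 in the knockout, below the level filter, against 7.05. The difference of −0.53, or 1.44-fold, came nearest to the 1.5-fold limit among the genes that did not reach it. Of 17 genes for G protein beta and gamma subunits, 12 were lower and 5 higher, with a median of −0.14. Only Gngt2, a gamma subunit gene, passed 1.5-fold in that list, at 6.89 against 8.38, a difference of −1.49. Gng10 differed by −0.37.

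The other 3 genes differed little. Itga2b encodes integrin alpha IIb (CD41), which pairs with integrin beta 3 to bind fibrinogen. It read 7.81 in the knockout against 7.74, a difference of 0.08, and its partner Itgb3 stood at 7.52 against 7.68, a difference of −0.16. Treml1, whose product TLT-1 sits in the alpha granule membrane, stood at 7.51 against 7.69, a difference of −0.17. Rab27b, a small GTPase of dense granule secretion, stood at 5.44 against 5.67, a difference of −0.23. It was the 1 gene of the 9 below the level filter. Each of these 3 differences was smaller in size than the SD of differences over genes past the filter, 0.33. That SD mixes any real differences with error, and Rab27b lay below the filter.

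**Figure D1:**
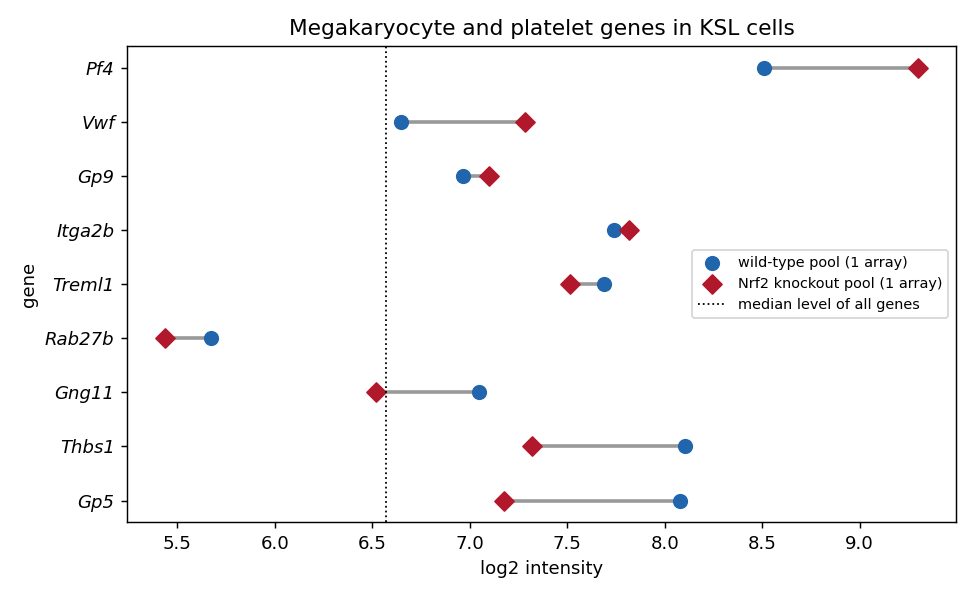
Log2 intensity (horizontal axis) of each of the 9 measured genes (vertical axis, ordered by difference) in the knockout pool (red diamonds) and the wild-type pool (blue circles), 1 array each, so there are no error bars. The dotted line is the median level of all genes, 6.57. Pf4 and Vwf are higher in the knockout by 0.79 and 0.63, and Gp5 and Thbs1 are lower by 0.90 and 0.78.

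Over the 9 genes the median difference was −0.17, with differences from −0.90 to 0.79. Over all genes the median was 0.01, and over genes past the filter −0.02. The median size of a difference, without its sign, was 0.53 over the 9 genes and 0.17 over genes past the filter. As a yardstick of probe behaviour, the 515 filtered genes that had 2 probe sets put the SD of such an error at 0.32, and a robust estimate put it at 0.17. This leaves out the spread between mice, sorts and amplifications, which a single pool per genotype cannot show. In pooled RNA, fewer cells of a type and less RNA per cell cannot be told apart.

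**Figure D2:**
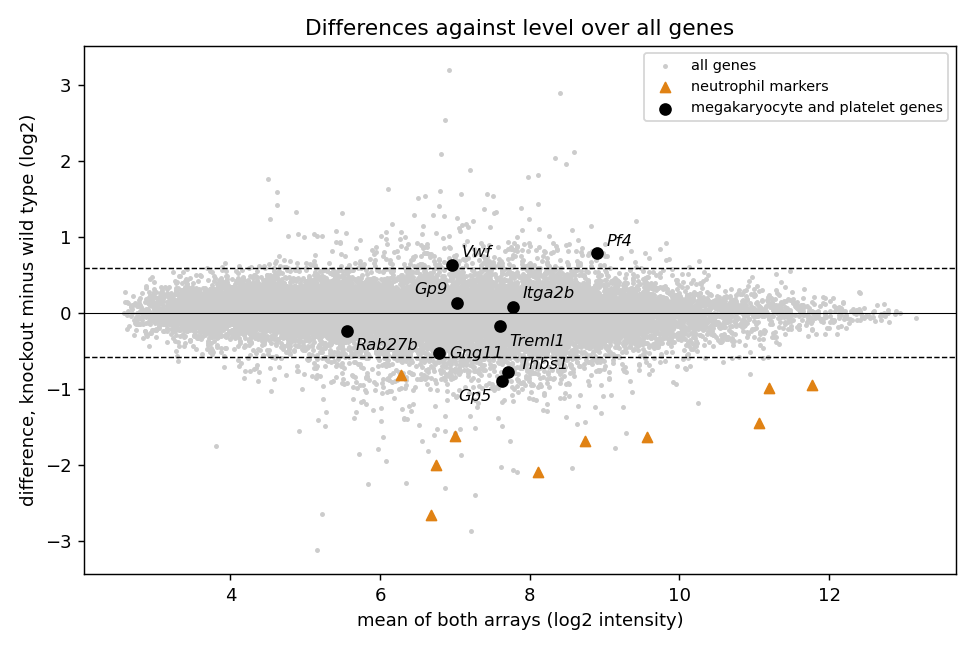
Difference in log2 intensity, knockout minus wild type (vertical axis), against the mean of both arrays (horizontal axis, log2 intensity) for all 19938 genes (grey), the 9 megakaryocyte and platelet genes (black, named) and 10 neutrophil markers (orange triangles). Dashed lines mark 1.5-fold in each direction. Of the black points, Pf4 and Vwf lie above the upper line and Gp5 and Thbs1 below the lower line, while all 10 triangles lie below the lower line.

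Among other genes of the pathway, few passed 1.5-fold in either direction. In 8 lists ordered by role, 121 genes outside the 10 were measured and 93 passed the level filter. The list of G protein subunits, which holds Gngt2, is not among these 8. Of the 121, with probe sets averaged, 5 were at least 1.5-fold lower and 0 higher, where 1.74% of all genes were higher by that size. By the brightest probe set of a gene in place of the average, 5 were lower and 1 higher. The 5 lower genes made up 4.13%, beside 3.15% of all genes. The share of lower genes is therefore near the background. Over the 121 the median was −0.05, with 47 above 0 and 73 below. By comparison, 46.9% of all genes and 52.9% of genes past the level filter were lower.

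Receptors were mostly level. In the list of fibrinogen and collagen receptors with their adaptors, 12 genes were measured, 5 higher and 7 lower, with a median of −0.09. Only Fcer1g, the signalling chain of the collagen receptor and of Fc receptors on myeloid cells, passed 1.5-fold, at 7.47 against 8.18, a difference of −0.71. The tyrosine kinase gene Syk, which acts after that chain, differed by −0.26. Of 10 receptors for soluble agonists, 0 passed 1.5-fold and the median was −0.15. The ATP-gated channel gene P2rx1 differed by −0.55, the thrombin receptor gene F2rl3 by −0.38 and its relative F2rl2 by 0.46.

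Of 18 measured genes for granule cargo and membrane, 15 were lower and 3 higher. The lower share was 46.9% over all genes and 52.9% over genes past the level filter. At least 1.5-fold, 2 were higher and 3 lower, and the median was −0.15. The robust probe-set error of 0.17 is that of a single gene and does not measure the error of this median. The 3 higher were Pf4, Vwf and Ppbp, the last by 0.02. Outside the named 10, Tgfb1, the cytokine gene, stood at 8.61 against 9.24, a difference of −0.63. Chosen after their values were seen, Sparc differed by −0.74 below the level filter, Ecm1 by −0.49 and F13a1, which monocytes also express, by −0.46. The machinery that builds and releases granules was level: of 20 genes, 0 passed 1.5-fold and the median was −0.05. In that list the Hps genes, whose products form complexes needed for dense granules and other lysosome-related organelles, were higher in 5 of 5, by 0.22 to 0.52. Hps3 stood at 8.29 against 7.77, Hps6 at 6.93 against 6.51 and Hps1 at 7.17 against 6.87. This group of 5 was singled out after its values were seen.

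The transcription factors of the lineage were level as a group. Of 24 measured, 14 were higher and 10 lower, 0 passed 1.5-fold and the median was 0.02. Zfpm1, the GATA1 cofactor FOG1, differed by 0.42, Runx1 by 0.36 and Meis1 by 0.35. Named after their values were seen, Gata1 stood at 6.47 against 6.19, below the level filter, Fli1 at 10.46 against 10.51, and Nfe2, a relative of Nfe2l2 that drives platelet genes, at 9.50 against 9.73. Of 15 cytoskeletal genes, only Actn1 passed 1.5-fold with probe sets averaged, at 7.02 against 7.78, a difference of −0.76. Tagln2 differed by −0.32. The myosin heavy chain gene Myh9 differed by 0.27 as the average of 2 probe sets, and by 0.69 by the brighter one alone, which is past 1.5-fold. Of 28 other platelet genes, 11 were higher and 17 lower, with Cd36 alone past 1.5-fold, below the level filter. The adhesion molecule gene Esam differed by −0.56, and Alox5ap and the thromboxane synthase gene Tbxas1, both also expressed by myeloid cells, by −0.55 and −0.52.

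**Figure D3:**
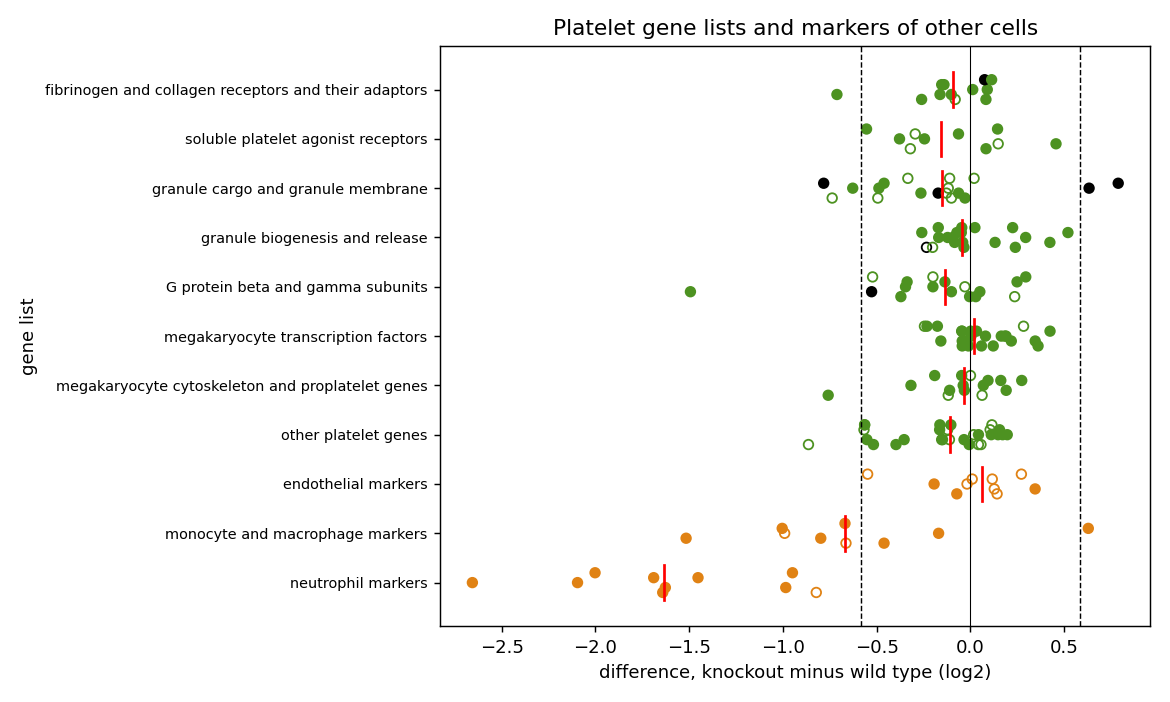
Differences in log2 intensity, knockout minus wild type (horizontal axis), of each measured gene in 8 lists of platelet genes and G protein subunits and 3 lists of markers of other cells (vertical axis). Filled points passed the level filter and open points did not. Black points are genes of the named 10, green the other genes of those 8 lists and orange markers of other cells. Red bars are list medians. These 8 lists are not the 8 that gave the 121 genes. They include the family of G protein subunits and leave out the von Willebrand receptor complex of 2 measured genes. Their medians lie between −0.15 and 0.02, that of the endothelial markers at 0.06, and those of the neutrophil and monocyte markers at −1.63 and −0.67.

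Pf4 alone was at least 1.5-fold higher among the 7 measured genes of its chemokine cluster, of which only 3 passed the level filter. Whether genes below the filter shared its difference could not be told. Pf4 lies in a cluster of CXC chemokine genes on chromosome 5, with Ppbp and Cxcl3 as its nearest measured neighbours in the annotation. Ppbp, which encodes another platelet chemokine, stood at 4.89 and 4.87, and Cxcl3 at 6.41 and 6.39, all below the level filter. The neutrophil attractant gene Cxcl2 read 8.02 in the knockout against 9.47, a difference of −1.44, opposite in sign to Pf4. Cxcl1 differed by −0.25, and below the level filter Cxcl5 differed by 0.07 and Cxcl15 by −0.14.

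Most neighbours of the 9 genes lay within 1.5-fold. Over the 18 nearest measured neighbours, 2 were lower by at least 1.5-fold and 0 higher, with a median of 0.06. By that size 3.15% of all genes were lower and 1.74% higher. Only 9 of the 18 passed the level filter, which limits what their differences show. The 2 lower were Efcc1 beside Gp9, at −0.63, and Gpatch8 beside Itga2b, at −0.70, next to genes that were close to level. The neighbours of Gp5, Lrrc15 and Atp13a3, differed by 0.34 and 0.28 while Gp5 differed by −0.90. Beside Vwf, the tetraspanin gene Cd9 differed by 0.17 and Ano2 by 0.08. Beside Gng11, its relative Gngt1 differed by 0.24 and Bet1 by 0.10. Near Treml1 in the Trem receptor cluster, Treml2 differed by −0.35, Treml4 by −0.01, Trem2 by 0.14 and Trem3 by −0.51. The neutrophil and monocyte receptor gene Trem1 differed by −1.86, at 4.79 against 6.64, with its mean below the filter. Of the selectin genes, Sele differed by −0.57 below the filter, and the P-selectin ligand gene Selplg stood at 10.15 in both pools.

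**Figure D4:**
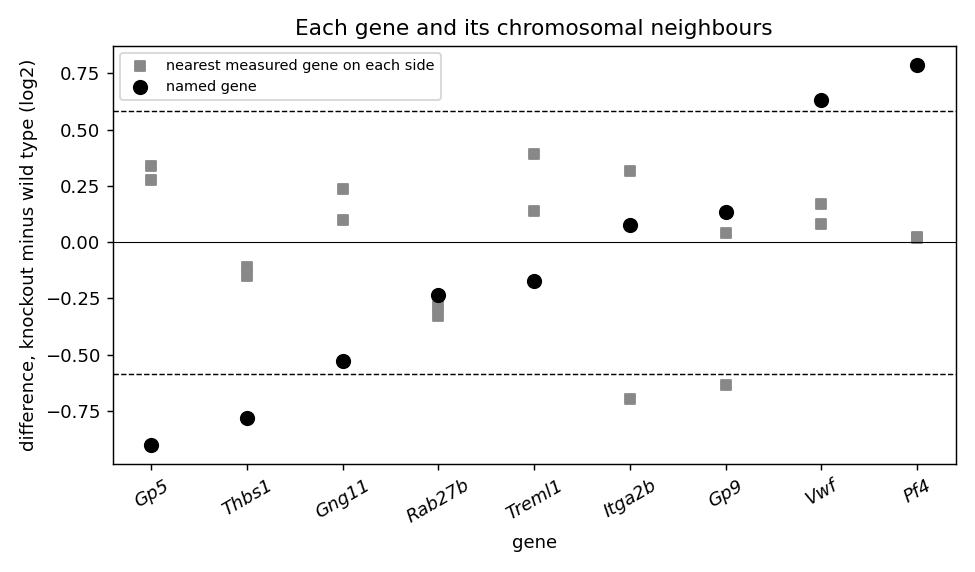
Difference in log2 intensity, knockout minus wild type (vertical axis), of each of the 9 genes (black circles, horizontal axis) and of the nearest measured gene on each side in annotation order (grey squares). Dashed lines mark 1.5-fold. The squares beside Pf4, Vwf, Gp5 and Thbs1 all lie within 1.5-fold, but only 9 of all 18 squares passed the level filter.

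Markers of mature megakaryocytes were uneven in these cells. Of 18 megakaryocyte and platelet markers, 13 were measured and 9 passed the level filter. Below it lay Ppbp, Rab27b, the tubulin gene Tubb1 at 6.15 and 6.27, and the podoplanin receptor gene Clec1b at 3.96 and 4.04. The summed linear intensity of the 13 was 2069.2 in the knockout against 2066.0, although single members differed by up to 1.87-fold. Of the 13, 5 were higher and 8 lower, and Pf4 alone read 629.5 against 364.6, which offset lower values in that sum. The group's name says where these genes are best known, and no count of megakaryocytes follows from it.

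Markers of mature myeloid cells were lower in the knockout. All 10 neutrophil markers were at least 1.5-fold lower in the knockout, with a median of −1.63 and a summed linear intensity of 6513.0 against 15201.6. The lowest were Retnlg at −2.66, Lcn2 at −2.10 and Mmp8, which was 4.01-fold lower. Of 9 monocyte and macrophage markers, 6 were at least 1.5-fold lower and 1 higher, with sums of 1668.0 and 2094.3, led by Ccl6 at −1.52, Ms4a6c, which was 2.01-fold lower, and Ccr2 at −0.99 below the level filter. The 1 higher was Cd68, at 0.63. Thbs1, Fcer1g, F13a1, Tgfb1, Alox5ap and Gngt2, singled out from their lists after their values were seen, were lower on the same array. Other genes of the platelet lists were close to level, among them Srgn at −0.06, Lcp2 at 0.01 and Plek at −0.15. The part of myeloid cells in all these values was not tested. Of the 9 measured genes, Pf4, Vwf, Gp9 and Itga2b were higher on that array, and Gp5, Thbs1, Gng11, Treml1 and Rab27b were lower. Of 7 erythroid markers, 5 were higher and 2 lower with a median of 0.04, and the largest differences were Car1 at −0.75, Rhag at 0.42 and Klf1 at −0.25, the last 2 below the level filter. Of 7 B lineage markers, 3 were higher and 4 lower with a median of −0.16, led by Cd79b at −0.79, and below the filter Ebf1 at 0.56 and Cd79a at −0.55. Of 8 T and NK markers, 1 was higher and 7 lower with a median of −0.18, led by Nkg7 at −0.48, and below the filter Cd3g at −0.58 and Cd5 at −0.37. No marker can read 0 on this scale. Among genes of the gate and of stem cells, Kit stood at 11.21 and 10.93 and Cd34 at 11.43 and 11.29, and of 8 measured 5 were higher and 3 lower with a median of 0.10. Slamf1 differed by 0.71 below the level filter and Meis1 by 0.35. Mecom differed by −0.45 as the average of 2 probe sets and by −0.59 by the brighter one, Procr by −0.09 and Hlf by −0.03. Ly6a, which encodes Sca-1, was not analysed here. The targeted gene Nfe2l2 read 9.07 in the knockout against 9.16, so its level did not separate the genotypes. The deleted part is not stated and where the probes lie was not examined. The genotypes therefore rest on the labels and were not checked by these values.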

How the data were processed

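RNA of 2 sorted pools was isolated with a Qiagen RNeasy kit and amplified and labelled with NuGEN Ovation kits, per the labels' protocols. Amplification from few cells can distort differences of single genes. The authors deposited log2 intensities for every probe set. The log base was taken from the values, which run from 2.40 to 13.79. Partek is named in the submitters' processing notes, with no version or role; how background was corrected and arrays normalized was not given in the sources used here. Once sorted, the arrays' values were within 0.0866 of each other, so a shift common to all genes could not be seen.

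Of 28853 probe sets, 21789 had 1 gene symbol, 1621 several and 5443 none in the platform annotation; those with 1 were kept and averaged per gene. Differences were taken with no further scaling and no test, in Python 3.11.15 with numpy 2.4.6. The code was tested on simulated data with planted differences and no noise. That checks its arithmetic and says nothing about error in these arrays. Alternatives were other scalings, probe set rules, sizes and level filters.

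The genes and lists were chosen with earlier results of these data known. Named were the 10 genes, Nfe2l2, all measured genes of the von Willebrand receptor, Pf4 cluster, selectin, Trem and thrombospondin lists, and in other lists genes past the filter and 1.5-fold or among the 3 largest differences; in marker lists of other cells, the 3 largest and defining markers. Others are said to be chosen later; neighbours were added after the data were seen. No gene was named for likeness of pattern, since 2 arrays give none.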

Additional observations from a re-analysis of the deposited data

How the results depend on the processing

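Under the 3 scalings tried, loess on mean level, quantile normalization and centring on the median, 27 differences of the 9 genes were recomputed, 0 changed sign, and the largest move was 0.05. The counts were 2 higher and 2 lower under each of the 3. The choice of probe set could not bear on these genes, which have 1 each. At a size of 2-fold the counts were 0 and 0. At the 75th percentile of level, Pf4 alone was left, with 1 higher, 0 lower and a median of 0.79. The median over the 9 genes lay between −0.20 and −0.05 when each gene was left out in turn, and the mean was −0.11. For the monocyte and macrophage markers, the median turned to 0.23 at the 75th percentile of level, where it rested on Cd68 and Mpeg1. Of 167 list medians listed under the alternatives, 12 moved by more than the robust probe-set error of 0.17, the monocyte and macrophage median included. Each of the 12 moved under a level filter that left fewer genes. The 167 include medians at other fold sizes, which could not move because the fold limit does not enter a median. The 167 therefore overstate how many medians could have moved. List counts could move as well. Of 28 other platelet genes, 1 was at least 1.5-fold lower as deposited, 2 under quantile normalization and 3 under loess. That count was 0 with the level filter at the median. No paired analysis was possible because each genotype had 1 array.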
